A study of Mus musculus with 6 samples.

Results

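Collagen genes were examined in cultured mouse cerebellar granule neurons (CGNs) in which the histone methyltransferase EZH2 was inhibited. The members are all genes whose symbol is written as Col, a number, a and a number, as in Col1a1. Of 55341 genes listed, 44 are members: 11 fibrillar collagens, 8 basement membrane collagens and 25 others. A member was tested if it reached a CPM (gene-assigned fragments scaled to a common library total) of 1 or more in at least 3 of 6 libraries. That left 39 of the 44 members, made up of 10 fibrillar, 7 basement membrane and 22 other collagens. The comparison was GSK-126, a small molecule inhibitor of EZH2, against the vehicle DMSO, with 3 libraries in each group paired by replicate number.

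The study grew CGNs from the cerebella of CD1-IGS mouse pups of both sexes, and asked how EZH2 activity in neurons that have just left the cell cycle bears on their transcription. Both groups came from precursors enriched on a Percoll gradient, both received cytosine arabinoside to stop dividing non-neuronal cells, and each replicate pooled cerebella of several pups. The inhibitor was added once, after the cells had been plated, and RNA was taken some days later; dose and day are not among the sample labels. The cultures were not sorted, so each library is RNA from whatever cells the dish held.

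Collagens are extracellular proteins in which polypeptide chains wind into a triple helix. Fibrillar collagens assemble into the tensile fibrils of connective tissue, and basement membrane collagens such as type IV form sheets under epithelia and around vessels. The remaining collagens bind to fibril surfaces, span cell membranes or build finer networks. Chains are hydroxylated and folded in the endoplasmic reticulum, trimmed outside the cell and then crosslinked by lysyl oxidases. In brain, collagen is made chiefly by meningeal fibroblasts and by the cells of vessel walls. EZH2 is the catalytic subunit of Polycomb repressive complex 2 (PRC2), which places the repressive mark H3K27me3. PRC2 tends to occupy CpG-rich promoters.

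Of the 39 tested collagens, 6 rose and 1 fell after GSK-126 at an adjusted p below 0.05 (edgeR quasi-likelihood test with the replicate number as a block, Benjamini-Hochberg over all 16685 genes tested). The background was 2.23% of all tested genes called higher and 1.38% called lower. The members were chosen with earlier results of these data known. The collagens that rose were the fibrillar chains Col1a1, Col5a2 and Col11a1, the basement membrane chain Col4a1, and Col8a1 and Col12a1. Col9a1, a chain of the cartilage collagen type IX, fell. These calls rest on the pairing. Without the replicate block no collagen passed (0 of 39, lowest adjusted p 0.469), nor did any of the 16685 genes (0), although 7 collagens and 996 genes (5.97%) had an unadjusted p below 0.05 there. In the paired fit 17 collagens had an unadjusted p below 0.05, of which 13 were higher. Among all tested genes 2745 (16.5%) did so, 1526 of them higher (9.15%). The 17 collagens, and the 7 without the block, include Col13a1. It was lower and passed the CPM filter only through the DMSO libraries.

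The tested collagens had a median log2 fold change of 0.23, against 0 for all tested genes, and 29 of 39 were positive. The ratio of GSK-126 to DMSO was above 1 in 3 of 3 pairs for 16 collagens, where the background was 19.6% of all tested genes. In 8 collagens all 3 GSK-126 libraries lay above all 3 DMSO libraries, against 5.41% of all tested genes. The fibrillar median was 0.37, the basement membrane median 0.29 and the median of the others 0.09. The pairs were unequal. The median log2 ratio of the tested collagens was 0.47 in replicate 1, 0.15 in replicate 2 and 0.12 in replicate 3, and 28 of 39 collagens had their largest ratio in replicate 1. Without replicate 1 the median fitted log2 fold change of the tested collagens was 0.10.

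**Figure D1:**
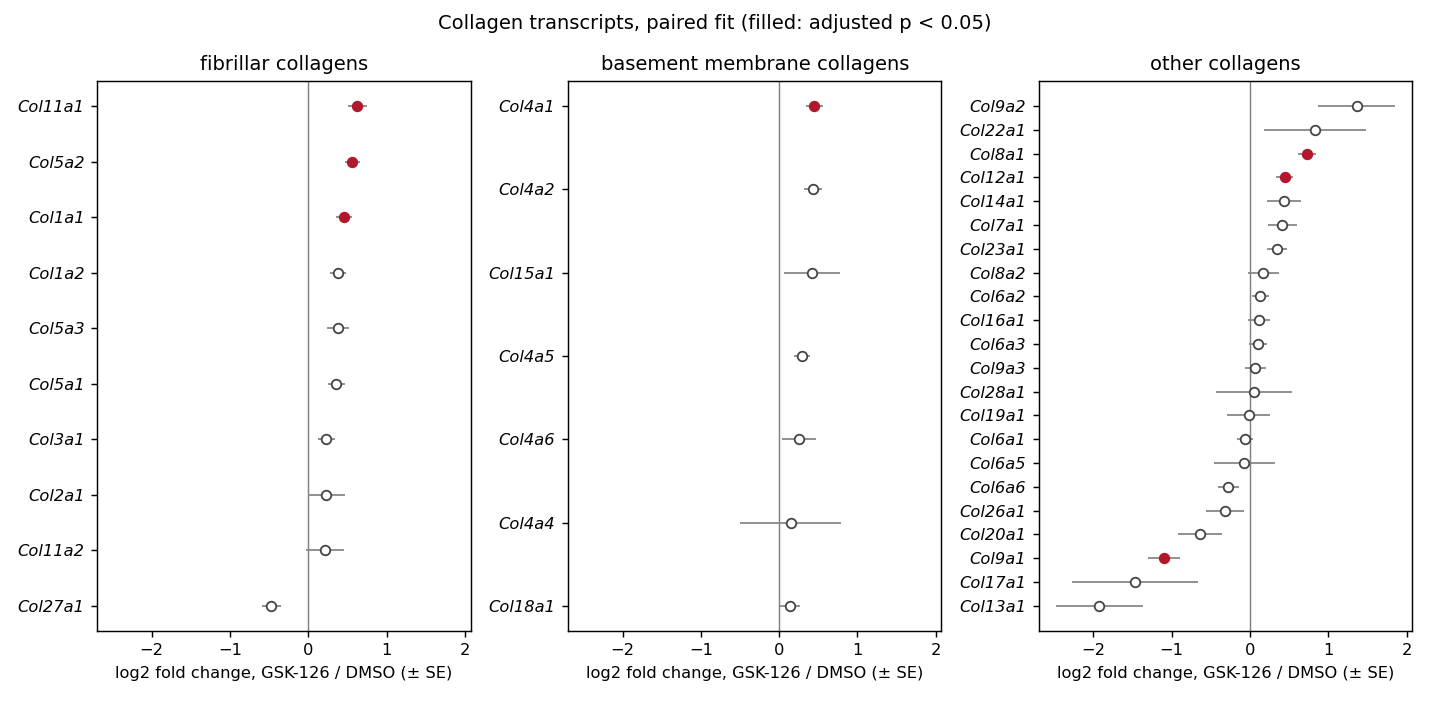
Log2 fold change of each tested collagen, GSK-126 over DMSO, with bars of 1 standard error from the paired fit; positive is higher after GSK-126 and filled points passed an adjusted p of 0.05. Of the filled points 6 lie to the right of 0 and 1, Col9a1, to the left.

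The promoter windows of 3 called genes and a stretch shared by Col4a1 and Col4a2 are shown to compare their CpG content. RefSeq windows on GRCm38.p6 were found for 35 of the 44 members (38 windows, since a gene can have several starts), and the 250 bases before each start were searched for the letters CG, which read the same on both strands. Col8a1, with the lowest adjusted p of the collagens that rose, and Col11a1 are shown because both were called whichever replicate was left out, and Col9a1 because it was the collagen that fell. The last stretch is where the first exons of Col4a1 and Col4a2 overlap head to head. CpG pairs are in capitals, and each sequence runs 5′ to 3′ on the gene's strand.
Col8a1, minus strand, chr16:57754738-57754987: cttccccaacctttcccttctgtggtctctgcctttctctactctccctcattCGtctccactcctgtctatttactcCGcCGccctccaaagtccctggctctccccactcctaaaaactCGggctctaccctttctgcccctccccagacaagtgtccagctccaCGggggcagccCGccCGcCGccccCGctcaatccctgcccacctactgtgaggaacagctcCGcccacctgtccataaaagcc
Col11a1, plus strand, chr3:114030290-114030539: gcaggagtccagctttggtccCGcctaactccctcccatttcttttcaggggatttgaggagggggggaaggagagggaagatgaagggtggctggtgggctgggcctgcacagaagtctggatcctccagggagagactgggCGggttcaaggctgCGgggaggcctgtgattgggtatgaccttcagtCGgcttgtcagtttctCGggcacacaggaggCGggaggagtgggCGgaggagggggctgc
Col9a1, plus strand, chr1:24177360-24177609: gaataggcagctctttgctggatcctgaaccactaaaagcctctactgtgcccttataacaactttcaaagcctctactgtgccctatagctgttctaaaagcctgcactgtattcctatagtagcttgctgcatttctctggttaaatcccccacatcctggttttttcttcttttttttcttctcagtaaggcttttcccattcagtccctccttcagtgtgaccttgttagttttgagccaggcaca
Col4a2, plus strand, chr8:11312805-11312826: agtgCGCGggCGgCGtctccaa

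The Col8a1 window held 10 CpG pairs, a count that 37.8% of all 32851 windows reached or passed. Col11a1 held 7, which 46.3% of all windows reached or passed, and the Col9a1 window shown held 0. Col4a1 and Col4a2 stood far above these, with 31 and 26 CpG pairs in their own windows, counts reached by 5.19% and 9.59% of all windows. Across the family the count ran from 0 for Col3a1, Col9a1 and Col28a1 to 31 for Col4a1. A count of 10 or more was found in 50% of the members' windows and in 37.8% of all windows. High counts were also found among collagens that did not pass the test: Col5a1 (28), Col8a2 (24) and Col13a1 (24) are examples. No window was found for Col1a1, Col5a2 or Col12a1. The H3K27me3 mark at these promoters was not analysed here.

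Type I collagen, the main fibril former of connective tissue, was the most abundant, and its alpha1 chain rose. Col1a1 (ENSMUSG00000001506, chr11:94936224-94953042, plus strand, GRCm38) had 2149, 2489.9 and 3159 CPM in DMSO replicates 1, 2 and 3, and 3395, 3440.5 and 3755 CPM in the GSK-126 libraries of the same numbers. The groups did not overlap, and the difference was smallest in replicate 3. Its log2 fold change was 0.46 (SE 0.103, 1.37-fold, adjusted p = 0.0327, edgeR). The call was lost without replicate 1 (adjusted p = 0.0515) and without replicate 2 (adjusted p = 0.228). Col1a2, the partner chain of type I, had 1928, 2056 and 2443 CPM in DMSO and 2844, 2705 and 2793 CPM in GSK-126. These groups did not overlap either, but its log2 fold change of 0.38 (SE 0.101) did not pass (adjusted p = 0.0639, edgeR). Col3a1, which is laid down with type I in soft tissues, had 2206, 2019.7 and 2817 CPM in DMSO and 3066, 2360 and 2809 CPM in GSK-126. Its groups overlapped, replicate 3 was at nearly the same level in both groups, and the log2 fold change was 0.23 (SE 0.107, adjusted p = 0.312, edgeR).

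Of the chains that join type I fibrils and bear on their width, 1 of type V and 1 of type XI rose. Col5a2 (chr1:45374321-45503282, minus strand), a chain of type V collagen, had 387, 388 and 532 CPM in DMSO and 601, 598 and 719 CPM in GSK-126. All GSK-126 libraries lay above all DMSO libraries, and the log2 fold change was 0.56 (SE 0.0996, 1.48-fold, adjusted p = 0.0114, edgeR). It was not called without replicate 2 (adjusted p = 0.0970). Its partner chain Col5a1 had a log2 fold change of 0.36 and did not pass (adjusted p = 0.119). Col11a1 (chr3:114030540-114220718, plus strand), a chain of the fibril-nucleating type XI, was scarcer: 52.2, 62.6 and 61.4 CPM in DMSO and 97.7, 85.0 and 88.9 CPM in GSK-126. Every treated library lay well above the controls, with a log2 fold change of 0.63 (SE 0.125, 1.55-fold, adjusted p = 0.0191, edgeR).

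The other fibrillar chains did not pass the test. Col5a3 (log2 fold change 0.38), Col2a1 (0.23) and Col11a2 (0.21), the last pair being chains known from cartilage, were positive with adjusted p-values of 0.186, 0.705 and 0.737. Col27a1 (chr4:63214004-63334991, plus strand), a fibrillar collagen of cartilage, was the exception in direction. It had 57.8, 79.3 and 51.3 CPM in DMSO and 42.5, 56.2 and 36.9 CPM in GSK-126, and was lower in 3 of 3 pairs with overlapping groups. Its log2 fold change of -0.47 (SE 0.117) lay just outside the threshold (adjusted p = 0.0511, edgeR).

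**Figure D2:**
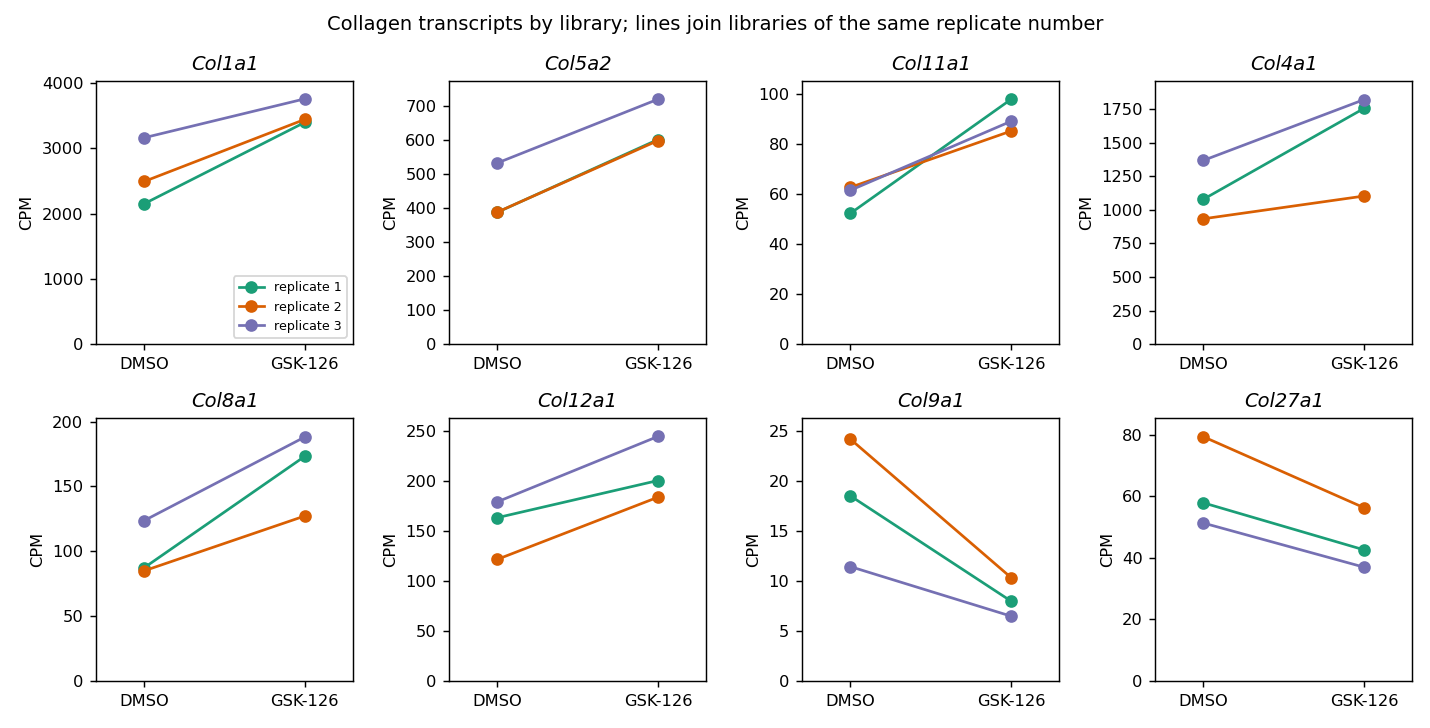
CPM of 8 collagens in each library, with DMSO on the left and GSK-126 on the right of each panel and lines joining libraries of the same replicate number; axes start at 0. Lines climb in 3 of 3 pairs for Col1a1, Col5a2, Col11a1, Col4a1, Col8a1 and Col12a1 and descend in 3 of 3 for Col9a1 and Col27a1, the last not past the threshold.

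Among basement membrane collagens, whose tested members all had positive log2 fold changes (7 of 7), only Col4a1 passed the paired test. Col4a1 and Col4a2 are the chains of the common type IV network, and their genes lie head to head on chromosome 8 (Col4a1 chr8:11198423-11312826, minus strand, and Col4a2 chr8:11312805-11449287, plus strand). Col4a1 had 1078, 933 and 1368 CPM in DMSO and 1755, 1102 and 1820.15 CPM in GSK-126. Replicate 2 was lowest in both groups, so the groups overlapped although 3 of 3 pairs were higher. The log2 fold change was 0.45 (SE 0.109, 1.37-fold, adjusted p = 0.0438, edgeR), and the call was lost whichever replicate was left out. Col4a2 had 592, 506 and 839 CPM in DMSO and 968, 585 and 1091 CPM in GSK-126. Its libraries fell in nearly the same order as those of Col4a1, with a log2 fold change of 0.43 (SE 0.113) that did not pass (adjusted p = 0.0616, edgeR). Exons of opposite-strand genes cover 0.295% of Col4a1 and 0.982% of Col4a2, so few fragments could be shared even if strand was not used in counting.

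The rest of the basement membrane group did not pass the test. Col18a1, the source of the fragment endostatin, had 409, 367 and 552 CPM in DMSO and 572, 324 and 599 CPM in GSK-126. It was higher in replicates 1 and 3 and lower in replicate 2, with a log2 fold change of 0.14 (SE 0.126, adjusted p = 0.645, edgeR). Col4a5 and Col4a6, which lie side by side on chromosome X, had log2 fold changes of 0.29 (adjusted p = 0.184) and 0.26 (adjusted p = 0.625). Col15a1 (0.42) and Col4a4 (0.15) had mean levels of at most 4 CPM in either group and adjusted p-values of 0.626 and 0.947.

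Col8a1, a short-chain collagen of vessel walls and of the cornea's Descemet membrane, had the lowest adjusted p of all collagens. The gene (chr16:57624258-57754737, minus strand) had 87.2, 84.9 and 123.6 CPM in DMSO and 173, 127 and 188 CPM in GSK-126. All treated libraries were above all controls, and the log2 fold change was 0.73 (SE 0.118, 1.66-fold, adjusted p = 0.00806, edgeR). Its relative Col8a2 had a log2 fold change of 0.17 (adjusted p = 0.742). Col12a1, which decorates the surface of type I fibrils (chr9:79598991-79718831, minus strand), had 164, 122 and 179 CPM in DMSO and 201, 184 and 245 CPM in GSK-126. Its groups did not overlap, the gap between them being narrow, and its log2 fold change was 0.45 (SE 0.107, 1.36-fold, adjusted p = 0.0439, edgeR). It lost the call without replicate 2 (adjusted p = 0.225) and without replicate 3 (adjusted p = 0.254). Col14a1, of the same fibril-associated class, had a log2 fold change of 0.43 with an adjusted p of 0.368.

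The type VI chains, which form beaded microfibrils, did not pass the test. Col6a1 had 178, 135 and 187 CPM in DMSO and 167, 136 and 175 CPM in GSK-126. The groups overlapped throughout, with a log2 fold change of -0.06 (SE 0.103, adjusted p = 0.838, edgeR). Col6a2 (log2 fold change 0.13), Col6a3 (0.11), Col6a5 (-0.07) and Col6a6 (-0.28) did not pass either, with adjusted p-values from 0.349 for Col6a6 to 0.960 for Col6a5.

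The type IX chains went separate ways. Col9a1 (chr1:24177610-24252684, plus strand) had 18.5, 24.2 and 11.4 CPM in DMSO and 7.98, 10.3 and 6.47 CPM in GSK-126. All treated libraries were below all controls, and the log2 fold change was -1.10 (SE 0.20, 0.467-fold, adjusted p = 0.0128, edgeR). Without replicate 2 it did not pass (adjusted p = 0.0946). Col9a3 had a log2 fold change of 0.07 (SE 0.139, adjusted p = 0.864, edgeR). Col9a2 was counted 8, 8 and 10 times in DMSO and 36, 14 and 31 times in GSK-126, and its log2 fold change of 1.36 (SE 0.492) did not pass (adjusted p = 0.183, edgeR). The differences among the 3 chains were not tested.

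Of the remaining collagens, Col13a1 and Col17a1 had few counts. Col13a1, a membrane collagen found at neuromuscular junctions, was counted 23, 14 and 24 times in DMSO and 12, 2 and 6 times in GSK-126. It reached a CPM of 1 in the 3 DMSO libraries and in 0 of the GSK-126 ones, so it passed the filter only through the group where it was high and had to differ. Its log2 fold change of -1.92 (SE 0.557) is given as a description and did not pass (adjusted p = 0.0932, edgeR). Col17a1, a hemidesmosome protein, was counted 20, 17 and 13 times in DMSO and 7, 0 and 18 times in GSK-126 (log2 fold change -1.47, adjusted p = 0.406). Col23a1 (0.34), Col7a1 (0.42), Col16a1 (0.11), Col22a1 (0.83) and Col28a1 (0.05) had positive log2 fold changes, and Col19a1 (-0.02), Col20a1 (-0.64) and Col26a1 (-0.32) negative ones. None of these passed. The 5 members that were not tested were Col10a1 (0 to 1 counts a library), Col24a1 (2 to 11), Col25a1 (2 to 9), Col4a3 (2 to 36) and Col6a4 (3 to 12). Just inside the filter, with exactly 3 libraries at a CPM of 1 or more, lay Col13a1, at 0.240 to 2.83 CPM, and Col22a1, at 0.360 to 2.91 CPM, and just outside it Col4a3, at 0.249 to 2.99 CPM.

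Levels were compared between genes per kilobase of merged exon. In DMSO the order from the top was Col1a1 (396 CPM per kb), Col3a1 (239), Col1a2 (172), Col4a1 (151), Col4a2 (97.5) and Col18a1 (63.0). Col5a2 (45.4) and Col5a1 (45.1) followed and were not separable. Merged exons take in every annotated isoform, so a gene with long minor isoforms, such as Col1a2 with 12426 exonic bases, is placed too low. The ratio of Col1a1 to Col1a2 per kb was 2.28 ± 0.169 in DMSO and 2.40 ± 0.143 in GSK-126, and that of Col4a1 to Col4a2 was 1.57 ± 0.104 and 1.59 ± 0.0975 (SD, n = 3). Both ratios overlapped between the groups. The ratio of Col5a1 to Col5a2 was 0.997 ± 0.0792 in DMSO and 0.866 ± 0.0733 in GSK-126, every treated library lying below every control one, the nearest by a narrow margin. These ratios were not tested.

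**Figure D3:**
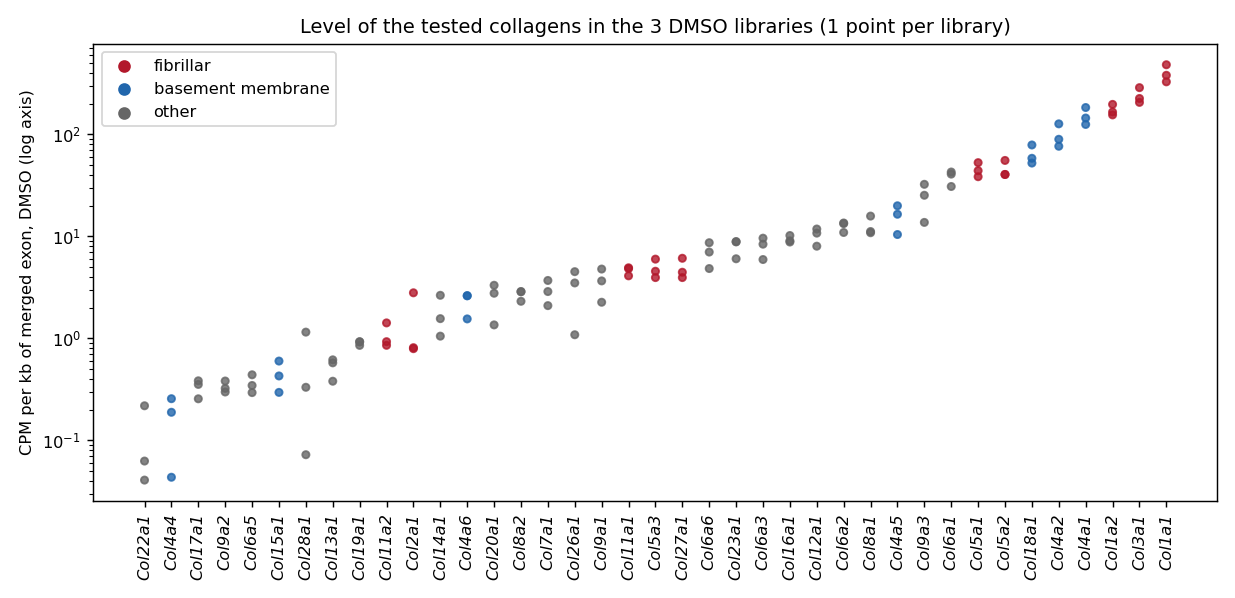
CPM per kb of merged exon (log axis) of the 39 tested collagens in the 3 DMSO libraries, 1 point per library, coloured by group and ordered by mean. Fibrillar and basement membrane chains hold the upper end, with Col1a1 first at a mean of 396, and the points of Col28a1 spread furthest.

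All collagens together took 1.06, 1.02 and 1.37% of gene-assigned fragments in DMSO and 1.54, 1.27 and 1.56% in GSK-126. In CPM that was 10486, 10232 and 13595 against 15464, 12767 and 15692, so DMSO replicate 3 lay above GSK-126 replicate 2 while GSK-126 exceeded DMSO in each pair, by ratios of 1.47, 1.25 and 1.15. Col1a1, Col1a2, Col3a1, Col4a1 and Col4a2 made up 75.8 to 79.8% of collagen counts in every library. Summed fibrillar collagens had pair ratios of 1.48, 1.296 and 1.13, and summed basement membrane collagens of 1.56, 1.11 and 1.27. The other collagens had pair ratios of 1.22, 1.11 and 1.09. No test was run on these sums.

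Summed markers of collagen-making cells were also higher after GSK-126 in each pair. The fibroblast sum had its smallest pair ratio in replicate 1, where the collagen and mural sums had their largest. For the marker calls the background was 2.23% of all tested genes called higher and 1.38% called lower. The marker lists were chosen with earlier results of these data known. All 15 listed markers of fibroblasts and meninges were tested and none was at 0 in all libraries. Their summed level was 949 to 1416 CPM in DMSO and 1356 to 1720 CPM in GSK-126, with pair ratios of 1.19, 1.43 and 1.24. Of the 15, Fbln2 (log2 fold change 1.20), Igf2 (1.16), Mgp (0.90) and Fbln1 (0.44) rose and Slc6a13 (-1.10) fell. Among those that did not pass were Dcn (log2 fold change 0.14), Lum (0.24) and Pdgfra (-0.21), the last also listed for the oligodendrocyte lineage. The median fibroblast log2 fold change was 0.33, and 12 of 15 were higher in 3 of 3 pairs (all tested genes, 19.6%). Mural cell markers summed to 777 to 1276 CPM in DMSO and 1335 to 1791 CPM in GSK-126, with pair ratios of 1.95, 1.40 and 1.40. Of 11 tested, 5 rose: Anpep (log2 fold change 0.76), Cspg4 (0.89), Pdgfrb (0.63), Acta2 (0.67) and Tagln (0.74). Rgs5 (0.62), Myh11 (0.61), Des (0.43), Vtn (0.29), Notch3 (0.27) and Abcc9 (-0.16) did not pass, and Kcnj8 was too low to test. Acta2 and Tagln, at means of 399 and 272 CPM in DMSO, weigh most in the mural sum. Exons of opposite-strand genes cover 67.9% of Tagln, and exons of same-strand genes cover 62.8% of the fibroblast marker Igf2. How far this bears on the counts of Tagln and Igf2 was not tested. The median mural log2 fold change was 0.62, against 0 for all tested genes. Summed collagen CPM per unit of summed fibroblast marker CPM was 7.40, 10.8 and 9.78 in DMSO and 9.18, 9.41 and 9.12 in GSK-126, the groups overlapping. Per unit of mural marker CPM it was 13.5, 10.7 and 10.7 in DMSO and 10.2, 9.56 and 8.76 in GSK-126, all treated libraries being lower. The part of these cells in the collagen changes was not tested. In whole cultures, more cells of a type and more RNA per cell cannot be told apart.

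Markers of other cell types were read in the same way, beside the same background of 2.23% called higher and 1.38% called lower. Granule neuron markers were present in every library and summed to 4600 to 6636 CPM in DMSO and 3293 to 4925 CPM in GSK-126. Of 10, Neurod1 (log2 fold change -0.57), Rbfox3 (-0.59), Gabra6 (-1.42) and Snap25 (-1.09) fell. Tubb3 (0.36) and Pax6 (0.04) were positive and did not pass, nor did Zic1 (-0.37), Zic2 (-0.27), Map2 (-0.24) and Cntn2 (-0.23). Endothelial markers were scarce, at 67.3 to 96.4 CPM summed in DMSO and 74.5 to 93.8 CPM in GSK-126. Of these Cldn5 was at 0 to 1.83 CPM and Pecam1 at 1.12 to 3.00 CPM, and Flt1 was the 1 of 9 tested that rose. Cdh5, the most abundant of the list, had 59.7, 36.4 and 52.2 CPM in DMSO and 46.1, 29.2 and 44.9 CPM in GSK-126. It was lower in 3 of 3 pairs but did not pass (log2 fold change -0.30, adjusted p = 0.246, edgeR). Of 10 microglial markers C1qb, C1qc and Cd68 rose, with sums of 366 to 649 CPM in DMSO and 450.1 to 928 CPM in GSK-126. Astrocyte markers were abundant and variable (2762 to 7968 CPM in DMSO, 2750 to 8236 CPM in GSK-126), and 0 of 10 passed the paired test in edgeR, with 4 at an unadjusted p below 0.05. Of 10 oligodendrocyte lineage markers 1 rose (Cspg4, also a mural marker), and of 7 tested GABAergic markers 1 fell (Slc32a1).

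**Figure D4:**
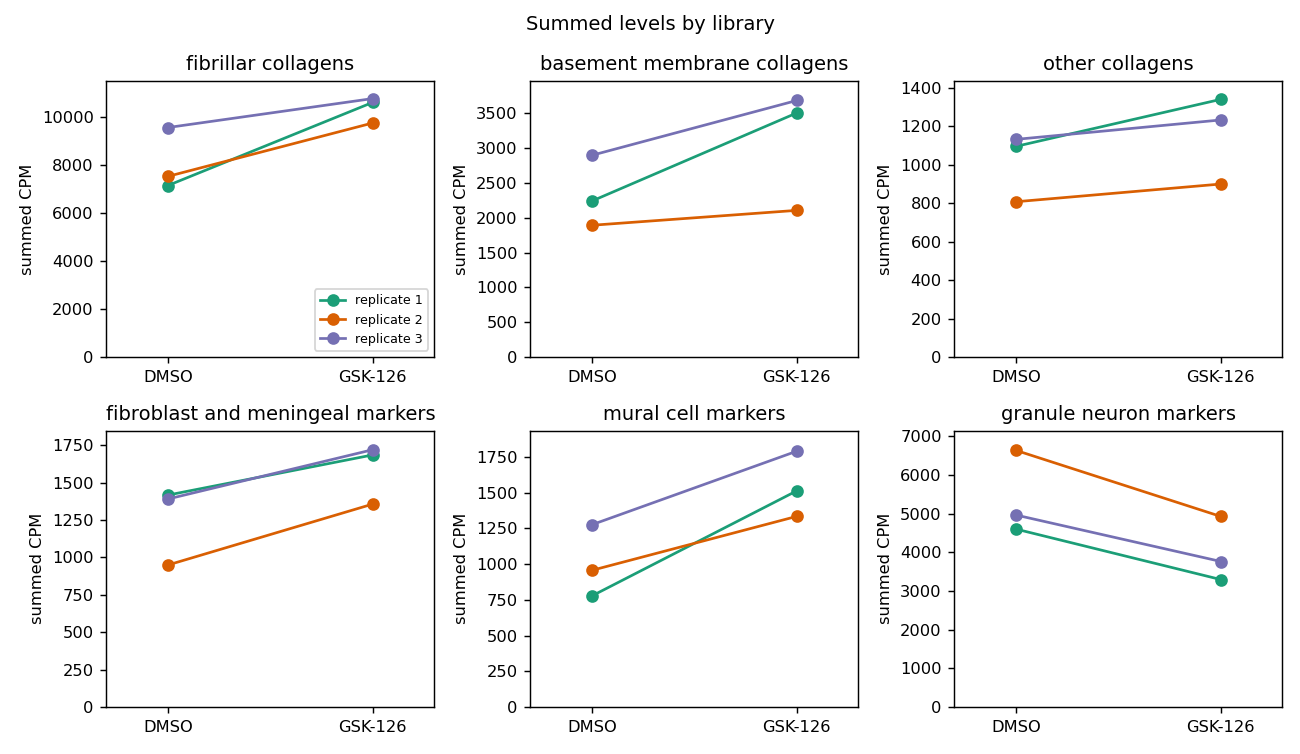
Summed CPM in each library of the fibrillar, basement membrane and other collagens and of the marker lists of fibroblasts and meninges, mural cells and granule neurons; lines join libraries of the same replicate number and axes start at 0. Lines climb in 3 of 3 pairs for the collagen, fibroblast and mural sums and descend in 3 of 3 for granule neuron markers.

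Genes that process, bind or accompany collagen (partner genes) were read from the same fit. Their lists were chosen with earlier results of these data known. Across 5 lists of such genes 16 of 71 tested rose and 0 fell at an adjusted p below 0.05 in edgeR (all tested genes, 2.23% higher and 1.38% lower), and without the replicate block 0 rose. Leaving out replicate 2 or replicate 3 left 8. The enzyme with the clearest change was Lox, the founding lysyl oxidase, which crosslinks collagen and elastin. It had 553, 601 and 606 CPM in DMSO and 1023, 1263 and 1148 CPM in GSK-126. The gap between the groups was wider than the spread within either, and the log2 fold change was 0.96 (SE 0.0978, 1.95-fold, adjusted p = 0.00066, edgeR). Of 12 tested genes for procollagen cleavage and crosslinking, Loxl1 (log2 fold change 0.61, adjusted p = 0.0165) and Loxl2 (0.51, adjusted p = 0.0412) also rose. Bmp1, which cuts the carboxy-terminal propeptide, had a log2 fold change of -0.35 and did not pass (adjusted p = 0.107).

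Most hydroxylation and folding enzymes had positive log2 fold changes, with few calls. Of 20 tested, P4ha2, a prolyl 4-hydroxylase subunit (log2 fold change 0.73, adjusted p = 0.0139), and Plod2, a lysyl hydroxylase (0.52, adjusted p = 0.0198), rose. The list's median log2 fold change was 0.24 and 18 of 20 were positive. P4ha1 (0.36) and the collagen chaperone Serpinh1 (0.28) did not pass, with adjusted p-values of 0.0884 and 0.279.

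Collagenases and their inhibitors held the most calls, with 6 of 12 higher and a median log2 fold change of 0.44. Mmp13, collagenase 3, had 9.20, 12.2 and 18.1 CPM in DMSO and 32.2, 25.3 and 45.3 CPM in GSK-126. It was low but its groups did not overlap, with a log2 fold change of 1.39 (SE 0.182, 2.62-fold, adjusted p = 0.00305, edgeR). The gelatinase Mmp2 (0.44) and the membrane collagenase Mmp14 (0.43) rose, and so did the inhibitors Timp1 (0.74), Timp3 (0.67) and Timp2 (0.48). Both breakdown enzymes and their inhibitors were among the genes that rose, whereas Timp4 (-0.37, adjusted p = 0.175) did not pass.

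Of 10 tested collagen receptors 3 rose: Itga11, the alpha chain of a fibrillar collagen integrin (log2 fold change 0.96, adjusted p = 0.0117), its partner Itgb1 (0.50, adjusted p = 0.0159), and Mrc2, which takes up collagen fragments (0.47, adjusted p = 0.0449). The kinase receptors Ddr1 (-0.07) and Ddr2 (0.31) did not pass. Of 17 laminins and basement membrane partners 2 rose. Fn1, fibronectin, had 1563, 1443 and 2349 CPM in DMSO and 2754, 2436 and 4222 CPM in GSK-126, and every treated library lay above every control. Its log2 fold change was 0.81 (SE 0.0917, 1.75-fold, adjusted p = 0.00146, edgeR). Hspg2, perlecan, had a log2 fold change of 0.49 (adjusted p = 0.0246), whereas the laminins Lama1 (0.26) and Lamc1 (0.35) and the linker Nid1 (0.04) did not pass.

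**Figure D5:**
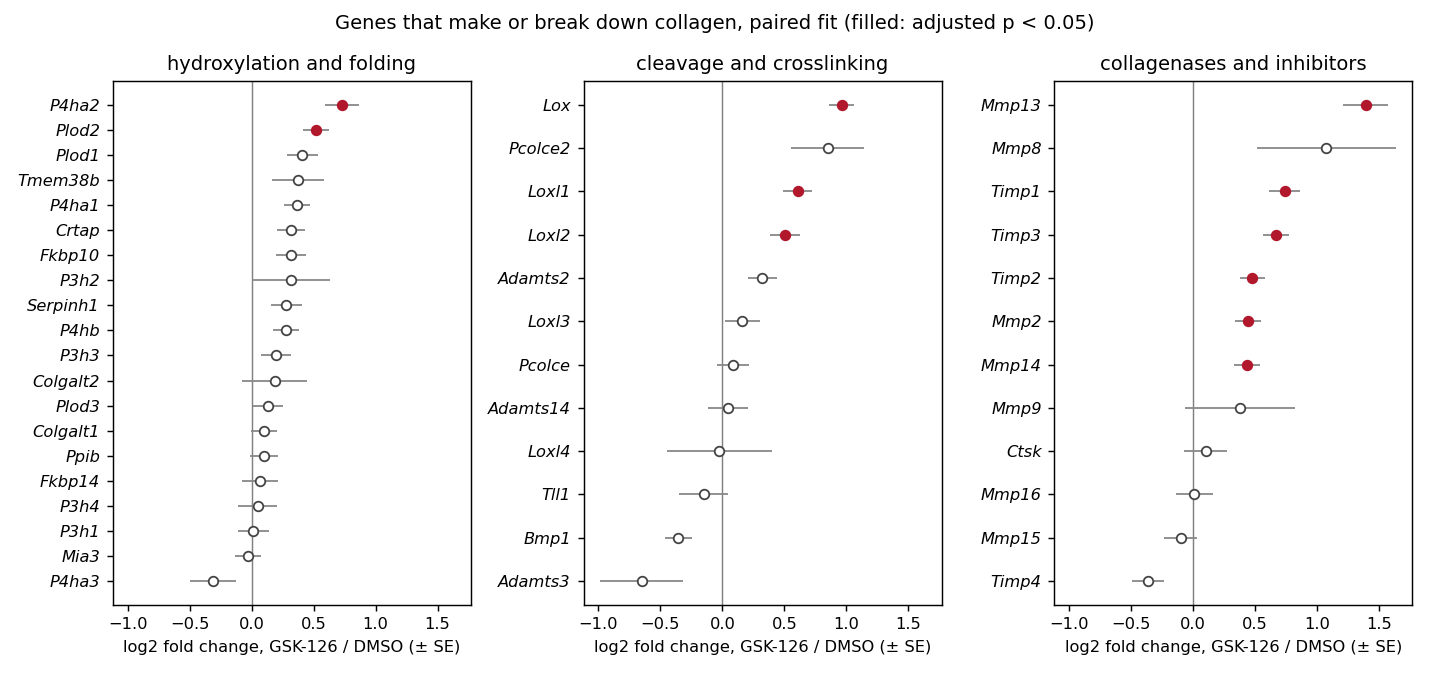
Log2 fold change, GSK-126 over DMSO, with bars of 1 standard error from the paired fit, of tested genes for collagen hydroxylation and folding, procollagen cleavage and crosslinking, and collagenases with their inhibitors; filled points passed an adjusted p of 0.05. The filled points, 2, 3 and 6 in the panels, all lie to the right of 0.

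Total gene-assigned counts ran from 8058760 to 12047837 a library, with GSK-126 replicate 1 the deepest. A level of 3 counts corresponded to 0.249 to 0.372 CPM, and the 5 members not tested had at most 3 counts in at least 1 library. Leaving out replicate 2 reduced the collagens called to Col8a1 and Col11a1 (2 higher, 0 lower). Leaving out replicate 1 gave 4 higher and 2 lower, and leaving out replicate 3 gave 4 higher and 1 lower.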

How the data were processed

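The 6 libraries (3 DMSO, 3 GSK-126) were grouped by the sample labels. The authors deposited raw fragment counts per gene, 1 table a library; the submitters' processing notes and the study's methods name FastQC, Trimmomatic 0.38, STAR 2.7.2b, HTSeq over exons and mouse build GRCm38. Whether counting used strand is not given in the sources used here. Rows that name no gene (58.4 to 60.9% of fragments) were left out of library sizes.

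Genes with a CPM of 1 or more in at least 3 of 6 libraries were fitted with edgeR 4.0.16 (R 4.3.3; TMM factors, quasi-likelihood test, replicate number as a block) and adjusted over all 16685 by Benjamini-Hochberg. Steps were tested on simulated data. CPM values use TMM-scaled totals, and SE is the log2 fold change over the square root of F. The study's methods name pools of litters as culture replicates. Deviations from group means correlated at 0.34, 0.48 and 0.50 between same-numbered libraries and from -0.39 to -0.01 otherwise, so the numbers were taken to pair. Such deviations sum to 0 within a group, so the negative values partly follow from the positive ones. P-values of the paired fit measure the spread of the treatment difference between pairs, after the block has taken up differences between replicates. Those of the fit without the block measure the spread between cultures.

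The labels' table names carry a day code that was not used. Coordinates and exon lengths come from GENCODE M21. Collagens called and the 3 most abundant of each group are given by library; partner genes past the threshold are named, at most 6 a list, and others named beside them were chosen after their values were seen. Members and lists were chosen with earlier results of these data known. Alternatives used DESeq2 1.42.0, limma 3.58.1, other filters, no block and each replicate left out.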

Additional observations from a re-analysis of the deposited data

How the results depend on the processing

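In the unpaired fit (no replicate block) 0 collagens, 0 partner genes and 0 markers were called in either direction. With the pairing it was 6 collagens higher and 1 lower, 16 partner genes higher, and 13 markers higher and 6 lower. The collagens lower came to 2 with filterByExpr, without a filter and with limma-voom, Col27a1 being the addition each time. Without a filter 1 partner gene was also lower, Bmp1. Leaving out 1 replicate gave 2 to 4 collagens higher and 0 to 2 lower, with a median collagen log2 fold change from 0.10 to 0.32. It gave 8 to 13 partner genes higher, and 11 to 12 markers higher and 4 to 7 lower. Col8a1 and Col11a1 were called in all 3 of these fits, and Col4a1 in 0. DESeq2 and limma-voom with the block and the fit without a filter kept 7 of the 7 collagen calls and gave 8, 8 and 9 higher, adding Col1a2 and Col4a2 in each and Col5a1 without a filter. DESeq2 size factors gave 6 higher and 1 lower. With type IV alone as the basement membrane group, 1 of that group and 2 of the others were called higher, as before.

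The sign changed with a replicate left out for 11 collagens that did not pass. Over the 3 fits their log2 fold changes ran from -0.08 to 0.29 for Col16a1, -0.03 to 0.32 for Col18a1, -0.05 to 1.51 for Col22a1, -0.11 to 0.47 for Col2a1, -0.76 to 0.66 for Col4a4, -0.06 to 0.53 for Col4a6 and -0.15 to 0.20 for Col9a3, the lowest each time without replicate 1. They ran from -0.24 to 0.16 for Col19a1, -0.56 to 0.11 for Col26a1, -0.23 to 0.68 for Col28a1 and -0.46 to 0.13 for Col6a5. Without the block Col19a1 was at 0.02 and Col28a1 at -0.18, and with limma-voom they were at 0.00 and -0.18. The cause of these changes was not tested. A level of 3 counts, a chosen floor, was 0.249 to 0.372 CPM. Fewer counts than that were recorded in some libraries, but are too few to read a level from at this depth.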
